A study of Mus musculus with 12 samples.

Results

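Levels of 44 listed genes of the cell cycle and DNA replication were followed in cultured mouse colon myofibroblasts that carry or lack the miR-143/145 microRNA cluster, before and after lipopolysaccharide (LPS). Members were found by gene symbol on an Illumina bead array, and each was read from 1 probe, the one with the highest mean over the 12 arrays among probes detected on at least 3 of them. Of the 44, 42 had a probe listed under their symbol and 40 had a probe that was kept, out of 11060 genes measured in all. Ccnb1 and Mki67 had no probe listed under their symbol. The probe for Ccnb2 and both probes for Bub1 were detected on 0 of 12 arrays, so these genes have no value here. The 40 measured members were each detected on all 12 arrays and fall by role into 11 genes of the replication fork and its licensing, 4 of deoxynucleotide synthesis, 8 of the G1/S switch, 2 of S and G2 phase, 9 of mitosis, and 6 listed as inhibitors of cyclin-dependent kinases (CDKs).

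The cells were intestinal subepithelial myofibroblasts, the contractile stromal cells that lie under the gut epithelium, grown as 6 lines from mouse colon. Lines WT5, WT7 and WT13 were wild type and lines KO4, KO10 and KO15 were null for miR-143/145, microRNAs known for their high level in smooth muscle and other mesenchymal cells. Every line gave an untreated array and an array of cells kept for 24 h with 1 ug/mL LPS, a component of the outer membrane of Gram-negative bacteria that is sensed through the receptor TLR4, which gave 4 groups of 3 arrays. All cells, with and without LPS, grew in serum with added insulin, transferrin and epidermal growth factor. Whether each line is a single clone, the number of passages, and whether each line came from a different animal are not stated by the labels, so the p-values rest on how these lines scatter, which may be technical in part. The transcript that hosts miR-143/145 was not analysed here, so the null genotype rests on the labels.

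A cell that is to divide passes from G1 into S phase when cyclin D with Cdk4 or Cdk6, and then cyclin E with Cdk2, phosphorylate the retinoblastoma protein and free E2F factors, which switch on genes for DNA synthesis. Origins of replication are licensed in G1, when Cdc6 helps load the Mcm2 to Mcm7 helicase, and fire in S phase with Cdc45 and the GINS complex. Genes of mitosis are switched on later, in G2, through promoter elements that include the CCAAT box and the cell cycle homology region (CHR), and CDK inhibitors of the Cip/Kip and Ink4 families restrain the kinases. Bulk RNA does not separate a change in the share of cells in S phase or mitosis from a change in RNA per cell, here or in any value below.

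Promoters are shown for 4 members whose level passed the test for LPS in wild-type lines: Pcna, Cdc6 and Mcm6 of the replication fork, which rose, and Cdc20 of mitosis, which fell. They were chosen after these values were seen, to let a reader see the elements by which replication and mitosis genes are known to differ. Each sequence runs 5′ to 3′ on the gene's own strand, from 250 bases before to 50 bases after the transcription start in RefSeq on GRCm38.p6. Capitals mark matches, on either strand, to the E2F motif (TTTCCCGC, TTTCGCGC, TTTGCCGC or TTTGGCGC), the CCAAT box (CCAAT) or the CHR (TTTGAA).
Pcna: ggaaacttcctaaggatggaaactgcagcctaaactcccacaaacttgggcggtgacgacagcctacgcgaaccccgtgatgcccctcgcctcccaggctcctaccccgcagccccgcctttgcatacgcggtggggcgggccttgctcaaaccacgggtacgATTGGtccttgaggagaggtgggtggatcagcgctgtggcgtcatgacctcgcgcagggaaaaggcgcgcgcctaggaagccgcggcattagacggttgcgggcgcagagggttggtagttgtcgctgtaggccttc
Cdc6: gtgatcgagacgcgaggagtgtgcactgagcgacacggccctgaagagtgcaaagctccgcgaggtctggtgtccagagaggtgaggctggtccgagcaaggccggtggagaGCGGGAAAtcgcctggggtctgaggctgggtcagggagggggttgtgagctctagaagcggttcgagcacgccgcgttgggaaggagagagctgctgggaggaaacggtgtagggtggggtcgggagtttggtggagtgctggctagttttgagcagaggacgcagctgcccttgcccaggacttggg
Mcm6: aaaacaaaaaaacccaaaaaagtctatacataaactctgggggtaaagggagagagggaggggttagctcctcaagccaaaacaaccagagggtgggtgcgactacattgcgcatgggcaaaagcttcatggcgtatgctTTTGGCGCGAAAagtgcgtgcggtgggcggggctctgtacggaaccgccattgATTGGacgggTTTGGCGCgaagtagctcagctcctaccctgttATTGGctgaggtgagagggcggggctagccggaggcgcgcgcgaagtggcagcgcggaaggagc
Cdc20: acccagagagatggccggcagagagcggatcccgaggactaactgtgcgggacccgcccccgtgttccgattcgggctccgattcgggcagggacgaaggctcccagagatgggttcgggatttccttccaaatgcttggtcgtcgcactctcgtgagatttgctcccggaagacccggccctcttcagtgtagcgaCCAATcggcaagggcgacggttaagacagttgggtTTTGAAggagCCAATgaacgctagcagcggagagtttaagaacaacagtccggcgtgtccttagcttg
The Pcna window lies at chr2:132253131-132253430 on the minus strand and holds 1 CCAAT match. That of Cdc6, at chr11:98907901-98908200 on the plus strand, holds 1 E2F match. In Mcm6, at chr1:128359656-128359955 on the minus strand, there are 3 E2F matches, 2 of which overlap each other, and 2 CCAAT matches. Cdc20, at chr4:118437294-118437593 on the minus strand, has 2 CCAAT matches and 1 CHR match. RefSeq windows were matched by symbol for 35 of the 44 listed members, and the first window listed was used for a gene with more than 1. Of the 8 replication windows, 5 held an E2F match, 7 a CCAAT match and 2 a CHR match. Mcm7 is among the 5, but its other window, which was not counted, held 0 E2F matches and 1 CCAAT match. Of the 9 mitosis windows, 0 held an E2F match, 8 held a CCAAT match and 7 a CHR match. Across all 32851 promoter windows in the RefSeq table, 2.26% held an E2F match, 37.4% a CCAAT match and 17.9% a CHR match. A match is a description of letters in this window and does not show that a factor binds there.

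Arrays were alike in quality, with median signals of 115.5 to 136.1 and 42.5% to 44.7% of probes detected. The LPS array of WT13 stood somewhat apart, with the highest median signal and a mean correlation of 0.987 with its group against 0.990 to 0.995 for the others. The slides were split by treatment, one for untreated cells and one for LPS, so slide and treatment cannot be told apart. On each slide the WT lines held the first positions and the KO lines the last, so genotype and position cannot be told apart either. Fibroblast markers were detected on all 12 arrays for 11 of 12 genes, as were 11 of 12 smooth muscle contractile markers. Of 16 macrophage and leukocyte markers with a probe, 8 were detected on all arrays, while Ptprc, Itgam, Fcgr1 and Cd74 were detected on 0 arrays. Of 12 epithelial markers 5 were detected on all arrays and 4 on none (Epcam, Vil1, Cldn3 and Lgr5). Of 10 endothelial markers 2 were detected on all arrays and 4 on none (Pecam1, Tie1, Vwf and Cldn5), and of 7 glial and neuronal markers with a probe 2 were detected on all and 3 on none.

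The first comparison asked whether cell cycle genes differ between null and wild-type lines, and no member passed the test in either condition. Without LPS, 0 of the 40 members passed in limma's test with Benjamini-Hochberg adjustment at 0.05 over all 11060 genes, and 0 had an unadjusted p under 0.05. Of all genes, 0.181% passed and 9.11% had an unadjusted p under 0.05. With LPS, 0 of 40 passed and 2 had an unadjusted p under 0.05, Ccnd1 and Cdkn1b, against 0.325% and 10.8% of all genes. Over the 6 line means, each the mean of a line's untreated and LPS array, 0 passed and the same 2 genes had an unadjusted p under 0.05, against 0.127% and 10.3% of all genes. The median KO minus WT difference of the members was 0.0025 on the log2 scale without LPS and 0.0011 with LPS, beside -0.0025 and 0.0084 for all genes.

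How large a difference the arrays could have missed is given by the 95% intervals. For KO against WT without LPS, the intervals of all 40 members lay within a 2-fold change and those of 35 within 1.5-fold. The lowest bound was -0.68 for Bub1b, a kinase of the spindle checkpoint, and the highest was 0.70 for Pcna. With LPS, 39 of 40 intervals lay within 2-fold and 30 within 1.5-fold. The exception was Gins1, a subunit of the GINS complex, with an upper bound of 1.03, and the lowest bound was -0.99 for Mcm6. Both genes had their most distant value in the same array: after LPS, Gins1 read 7.69, 7.81 and 6.73 in WT5, WT7 and WT13, while Mcm6 read 10.07, 9.71 and 11.02. For the line means, all 40 intervals lay within 2-fold and 38 within 1.5-fold.

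**Figure D1:**
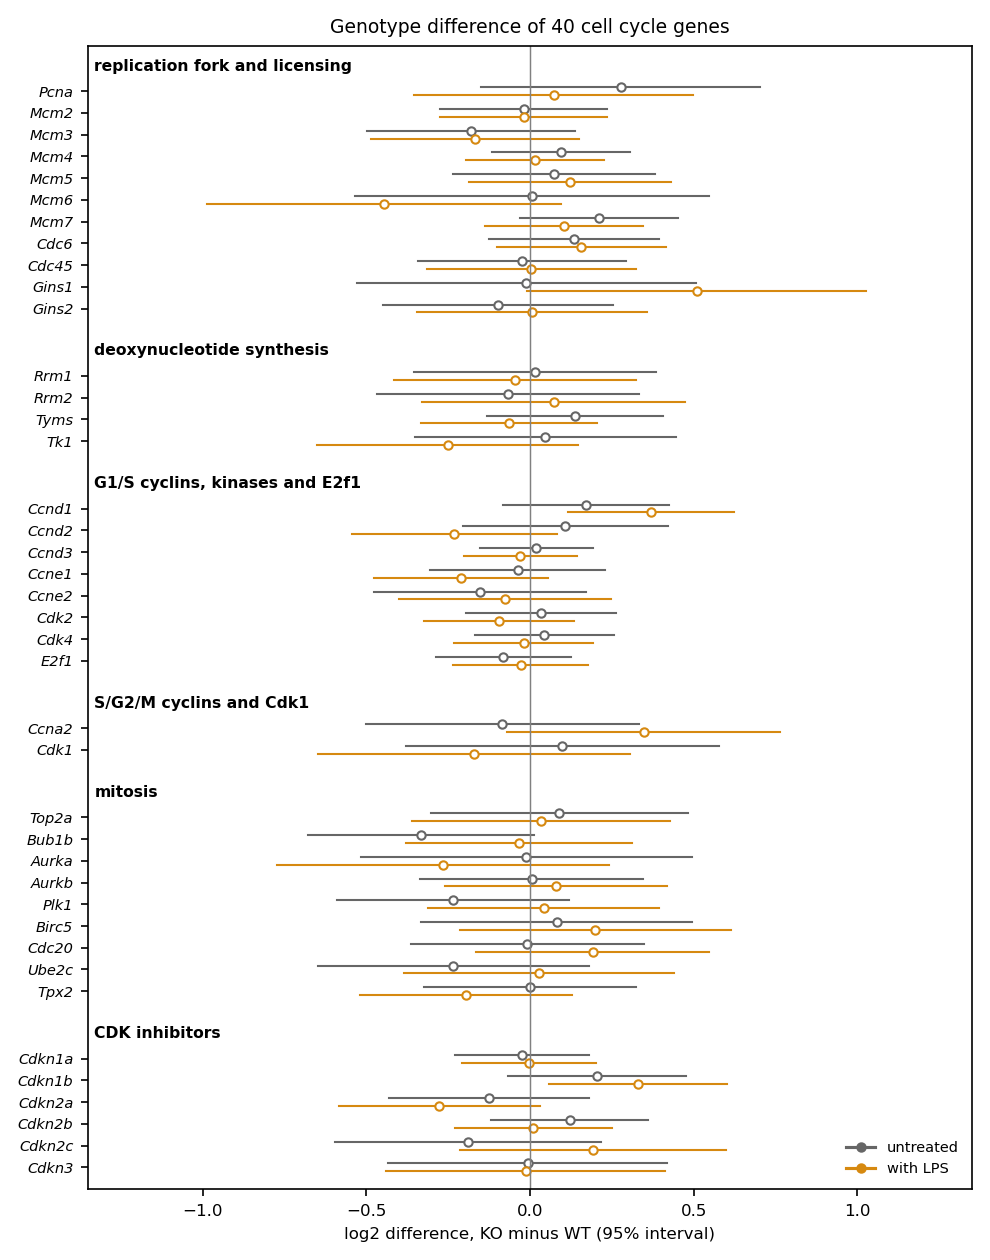
Difference between null and wild-type lines for each of the 40 measured genes, on the log2 scale (x axis, KO minus WT), without LPS (grey) and with LPS (orange). Points are differences between group means of 3 lines each, bars are 95% intervals from the limma fit, and open points did not pass the test. No point is filled, and without LPS no bar reaches a 2-fold change.

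Groups that did not overlap were few among the members. Without LPS, Mcm7 was higher in all KO lines than in all WT lines and Bub1b was lower, which makes 2 of 40 members, against 18.7% of all genes with groups apart. Mcm7, a subunit of the replicative helicase, read 7.95, 7.85 and 8.07 in WT5, WT7 and WT13, against 8.15, 8.21 and 8.14 in the KO lines taken in the order KO4, KO10 and KO15 (log2 difference 0.21, SE 0.11, adjusted p = 0.623). A second Mcm7 probe, also detected on all 12 arrays, gave the opposite sign, -0.21. Bub1b read 9.37, 9.45 and 9.39 in the WT lines and 9.17, 9.32 and 8.73 in the KO lines (log2 difference -0.33, SE 0.16, adjusted p = 0.564). With LPS the 2 members whose groups did not overlap were Ccnd1 and Cdkn1b, against 13.2% of all genes. Neither share of members exceeded the share of all genes.

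Ccnd1, the cyclin D1 that couples growth factor signals to Cdk4 and Cdk6, read 13.55, 13.71 and 13.30 in WT5, WT7 and WT13 after LPS, against 14.02, 13.83 and 13.82 in KO4, KO10 and KO15. Every KO line stood above every WT line, by 0.37 on the log2 scale (SE 0.12, adjusted p = 0.289). Before LPS the difference was 0.17 (adjusted p = 0.764), and over the line means it was 0.27 (adjusted p = 0.363). The other 2 probes for Ccnd1 gave KO minus WT differences of 0.21 and 0.28 with LPS.

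Cdkn1b, a Cip/Kip inhibitor of cyclin E with Cdk2, showed the same order, but at a low signal. The gene's mean level lay at percentile 17.9 of the genes measured, and only 1 of its 3 probes was kept. After LPS it read 5.18, 5.22 and 5.01 in the WT lines and 5.55, 5.52 and 5.33 in the KO lines, with no overlap (log2 difference 0.33, SE 0.12, adjusted p = 0.369). Untreated values were 5.26, 5.29 and 5.58 in WT and 5.80, 5.53 and 5.43 in KO, where the groups overlapped (log2 difference 0.21, adjusted p = 0.716). Over the line means the difference was 0.27 (adjusted p = 0.351).

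The remaining CDK inhibitors did not pass the genotype test either. Cdkn1a, the inhibitor induced by p53, differed by -0.02 without LPS and by -0.00 with LPS, and its 95% intervals were among the narrowest, from -0.23 to 0.18 without LPS. Other Cdkn1a probes gave 0.00 and -0.05 without LPS and 0.13 and 0.17 with LPS. Cdkn2b, an Ink4 inhibitor of Cdk4 and Cdk6 that is induced by TGF-beta, differed by 0.12 and 0.01. Its neighbour Cdkn2a, which encodes an Ink4 inhibitor and, from another reading frame, the p53 activator Arf, differed by -0.13 and -0.28, the latter with an adjusted p of 0.508. Other Cdkn2a probes gave 0.12 and -0.33 without LPS and 0.12 and -0.36 with LPS. Cdkn2c, another Ink4 gene, differed by -0.19 and 0.19, and Cdkn3, a phosphatase that acts on CDKs, by -0.01 in both conditions.

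One CDK inhibitor outside the 44 did pass the genotype test. Cdkn1c, the third Cip/Kip gene, belongs to a list of 27 measured E2F, RB and other CDK regulators and read 10.89, 11.30 and 11.08 in the WT lines after LPS and 12.26, 12.05 and 11.85 in the KO lines. All KO lines were above all WT lines, 1.95-fold in the mean (log2 difference 0.96, SE 0.17, adjusted p = 0.0441). It was the only gene of that list past the test for genotype with LPS, where 0.325% of all genes passed. Without LPS 0 of the list passed, beside 0.181% of all genes, and Cdkn1c differed by 0.92 (adjusted p = 0.0689). The call did not hold without any 1 of the 6 LPS arrays (adjusted p from 0.0621 to 0.168), and it was lost in 9 of 15 alternatives in all, while the difference kept between 0.86 and 1.07.

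Lists of other cell cycle genes held few genotype calls, as did genes in general. Of all genes, 0.181% passed without LPS, 0.325% with LPS and 0.127% over the line means. Of 42 other replication genes and 39 other mitosis genes, 0 passed in either condition or over the line means. Among 21 measured p53 targets, 1 passed in all 3 genotype comparisons: Pmaip1, which encodes the death-promoting BH3 protein Noxa, was lower in the null lines, with log2 differences of -1.69 without LPS and -1.87 with LPS (adjusted p = 0.0003 and 9.77e-05). It was past the test in all 15 alternatives tried in each condition, although without background correction the differences were -1.03 and -1.16. Cdkn1a, which p53 also induces, did not pass. Whether p53, the microRNAs or another difference between the lines sets the level of Pmaip1 was not tested.

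The second question was what LPS did to these genes. In wild-type lines 7 passed: Pcna, Cdc6, Mcm6, Mcm7 and Ccne1 rose, and Ccnd1 and Cdc20 fell. In null lines 4 passed: Pcna and Cdc6 rose, and Ccnd1 and Cdkn2b fell. The share of all genes past the test was 22.8% in WT (10.5% higher and 12.3% lower) and 14.7% in KO (7.45% higher and 7.22% lower). With the cell line as a block, 11 members passed in WT and 6 in KO, beside 27.1% and 17.4% of all genes. Their median LPS change was -0.01 in WT and 0.01 in KO, beside -0.06 and -0.03 for all genes.

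**Figure D2:**
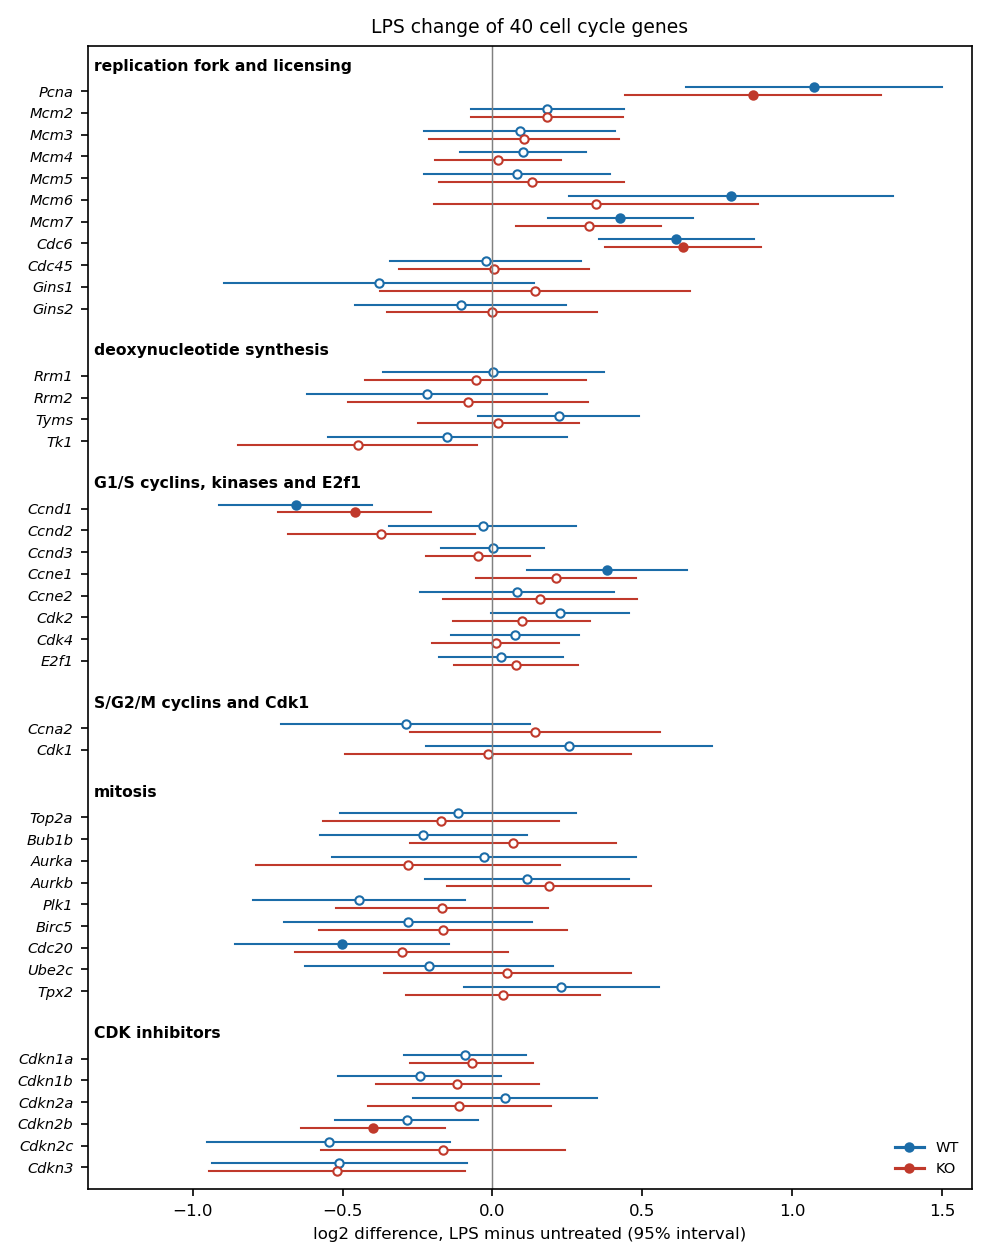
LPS change of each of the 40 measured genes (x axis, log2 difference, LPS minus untreated) in wild-type and in null lines. Points are differences between group means of 3 lines, bars are 95% intervals, and filled points passed the test. Pcna and Cdc6 lie farthest to the right among filled points that both genotypes share, and Ccnd1 is filled on the left in both.

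Counted line by line, 8 members were higher after LPS in all 6 lines and 8 were lower in all 6, while 24 moved differently between lines. Of all genes, 16% were higher in all 6 lines and 22.2% were lower in all 6. In WT, the 2 conditions did not overlap for 18 members, 9 higher and 9 lower, against 39.9% of all genes (16.9% higher and 23% lower). In KO this held for 8 members, 5 higher and 3 lower, against 37.1% of all genes (16% higher and 21.1% lower).

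Pcna, the sliding clamp that holds DNA polymerases on their template, gave the largest change among the members in both genotypes. Untreated WT5, WT7 and WT13 read 6.61, 6.46 and 6.87, which became 7.56, 7.45 and 8.16 after LPS. In KO4, KO10 and KO15 it went from 7.05, 6.65 and 7.07 to 8.02, 7.53 and 7.82. Every LPS array was above every untreated array in either genotype. The rise was 2.10-fold in WT (log2 difference 1.07, SE 0.20, adjusted p = 0.0028) and 1.83-fold in KO (0.87, SE 0.20, adjusted p = 0.012). In KO the call was lost without the untreated array of KO10 (0.73, adjusted p = 0.0516) and without both arrays of KO4 (0.81, adjusted p = 0.0687). The other alternatives kept the call in both genotypes, but without background correction the difference was 0.64 in WT and 0.54 in KO, and with the authors' processed values it was 0.64 and 0.54.

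Cdc6, which loads the helicase onto origins, rose by a like amount in both genotypes. WT values were 7.67, 7.53 and 7.42 untreated and 8.0, 8.11 and 8.35 with LPS. KO values were 7.82, 7.61 and 7.59 untreated and 8.42, 8.34 and 8.17 with LPS. As with Pcna, the conditions did not overlap in either genotype. The rise was 1.53-fold in WT (log2 difference 0.61, SE 0.12, adjusted p = 0.00395) and 1.55-fold in KO (0.64, SE 0.12, adjusted p = 0.0044). A second Cdc6 probe, detected on 4 arrays, gave 0.38 in WT and 0.03 in KO, and with the probes averaged the KO difference was 0.33 (adjusted p = 0.127).

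Mcm6 and Mcm7, both subunits of the helicase, rose in WT. Mcm6 read 9.41, 9.47 and 9.53 untreated and 10.07, 9.71 and 11.02 with LPS in WT5, WT7 and WT13. The WT13 value stood far above the other 2, although all 3 LPS values were above the untreated ones. The difference was 0.80 (SE 0.25, adjusted p = 0.0377), or 1.74-fold. It fell to 0.42 without the LPS array of WT13 (adjusted p = 0.0639), and the call was also lost without the untreated array of WT5, WT7 or WT13 (adjusted p = 0.0956, 0.0873 and 0.081), without both arrays of WT13 (0.101) or without both arrays of KO4 (0.0523). In KO, Mcm6 read 9.57, 9.50 and 9.36 untreated and 10.03, 9.80 and 9.63 with LPS, again without overlap, and did not pass (0.34, adjusted p = 0.401). The 3 other Mcm6 probes gave 0.11, 0.84 and 0.36 in WT and 0.18, 0.59 and 0.35 in KO, so all 4 probes were positive but unequal.

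For Mcm7 the WT values were 7.95, 7.85 and 8.07 untreated and 8.25, 8.28 and 8.61 with LPS, which do not overlap. This was a rise of 1.34-fold (log2 difference 0.43, SE 0.11, adjusted p = 0.0167). The KO lines went from 8.15, 8.21 and 8.14 to 8.58, 8.38 and 8.50, also without overlap (0.32, adjusted p = 0.075). A second Mcm7 probe, detected on all 12 arrays, gave -0.08 in WT and 0.06 in KO. With both probes averaged the WT difference was 0.17 (adjusted p = 0.233), and without the untreated array of WT7 it was 0.37 (adjusted p = 0.068).

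**Figure D3:**
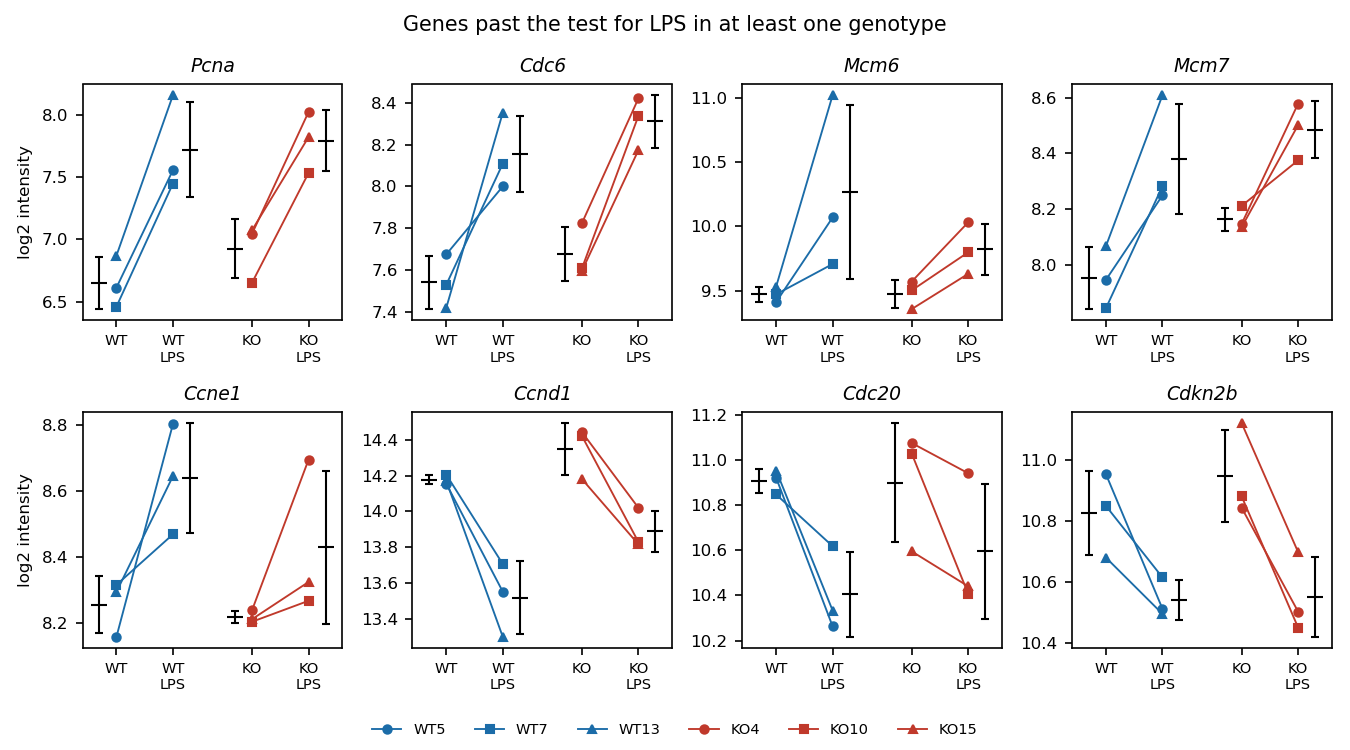
Level on each array (y axis, log2 intensity) of the 8 members past the LPS test in at least 1 genotype, with a line joining the untreated and LPS array of each cell line. Black dashes and bars give the mean and SD of 3 lines. Pcna, Cdc6, Mcm6, Mcm7 and Ccne1 climb in all 6 lines, and Ccnd1, Cdc20 and Cdkn2b drop in all 6. The Mcm6 value of WT13 with LPS stands alone at 11.02.

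Other genes of the fork changed less, and 0 of the remaining 7 passed in either genotype, beside 22.8% of all genes in WT and 14.7% in KO. Mcm2, Mcm3, Mcm4 and Mcm5 had LPS differences of 0.18, 0.09, 0.10 and 0.08 in WT and 0.18, 0.11, 0.02 and 0.13 in KO. Cdc45, which joins the helicase when an origin fires, differed by -0.02 and 0.01. Gins2 differed by -0.11 in WT, and Gins1 by -0.38 in WT and 0.14 in KO, neither past the test. Over all 11 replication members the median LPS change was 0.10 in WT and 0.14 in KO, with 8 and 10 of 11 above 0, where 42.7% and 44.7% of all genes were above 0.

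A wider list showed which other replication genes moved. Of 42 measured, 6 rose and 0 fell in WT, and 3 rose and 0 fell in KO, with medians of 0.13 and 0.14. Genes called higher made up 10.5% of all genes in WT and 7.45% in KO. Orc1, a subunit of the origin recognition complex, rose by 0.64 in WT and 0.59 in KO. Gmnn, whose product geminin blocks relicensing, was detected on 0 of 6 untreated arrays and 4 of 6 LPS arrays, so it entered the test through LPS alone. It was at least 1.11-fold higher with LPS in WT. Its call among the 6 is not separate support, as the filter kept it for its LPS signal. For such a bound, each untreated array was given the lowest signal that counted as detected on it, or the gene's own signal where that was higher, and the LPS mean was divided by the average of these. Prim1, the catalytic subunit of primase, was detected on 0 of 3 untreated WT arrays and was at least 1.29-fold higher with LPS (adjusted p = 0.0234). In untreated KO it was detected on 1 of 3 arrays, so it too passed the filter only through its LPS arrays. Its call is therefore not separate support either. In KO the others that rose were Fen1, the flap nuclease of lagging strand synthesis, by 0.42 and Uhrf1, which recruits the maintenance DNA methyltransferase, by 0.41. Each of these 3 KO calls was lost when single arrays were left out: Orc1 without any 1 of the 6 KO arrays (adjusted p from 0.0552 to 0.144), and Fen1 and Uhrf1 without any 1 but the LPS array of KO15 (adjusted p from 0.05 to 0.152 and from 0.0817 to 0.155), with Uhrf1 at 0.26 without the LPS array of KO4. In WT, Orc1 was lost without the untreated array of WT7 or the LPS array of WT13 (0.0781 and 0.0731), as was Prim1 (0.0833 and 0.0907) and, without the untreated array of WT5, Prim1 again (0.0528). Without background correction the WT differences were 0.20 for Orc1, 0.17 for Gmnn and 0.19 for Prim1, all still called, and that of Orc1 in KO was 0.17 and not called (adjusted p = 0.113).

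Enzymes that make deoxynucleotides showed no call, 0 of 4 in either genotype, beside 22.8% of all genes in WT and 14.7% in KO. Tk1, thymidine kinase, had the smallest p and read 10.08, 10.00 and 9.89 in untreated KO4, KO10 and KO15 against 9.92, 9.34 and 9.35 with LPS (log2 difference -0.45, SE 0.18, adjusted p = 0.128). Its WT values of 9.94, 9.77 and 10.11 untreated and 9.66, 9.54 and 10.16 with LPS overlapped (-0.15, adjusted p = 0.576). With the cell line as a block, Tk1 passed in KO (adjusted p = 0.034). Tyms, thymidylate synthase, read 10.56, 10.40 and 10.42 untreated and 10.73, 10.66 and 10.66 with LPS in WT, without overlap (0.22, adjusted p = 0.213). Its KO values were 10.69, 10.58 and 10.54 untreated and 10.94, 10.48 and 10.45 with LPS (0.02, adjusted p = 0.938). The ribonucleotide reductase subunits Rrm1 and Rrm2 differed by 0.00 and -0.22 in WT and by -0.06 and -0.08 in KO.

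At the G1/S switch, cyclin D1 and cyclin E1 moved in opposite directions in WT. Ccnd1 fell from 14.15, 14.21 and 14.17 to 13.55, 13.71 and 13.30 in WT5, WT7 and WT13. In KO4, KO10 and KO15 it fell from 14.44, 14.42 and 14.18 to 14.02, 13.83 and 13.82. The conditions did not overlap in either genotype. The drop was 1.58-fold in WT (log2 difference -0.66, SE 0.12, adjusted p = 0.00243) and 1.38-fold in KO (-0.46, SE 0.12, adjusted p = 0.0215). All 3 Ccnd1 probes were lower with LPS, by 0.61 to 0.68 in WT and by 0.46 to 0.76 in KO. The WT call held in all 17 alternatives. The KO call was lost without the untreated array of KO4 or KO10, the LPS array of KO10 or KO15, or both arrays of KO4 (adjusted p from 0.0714 to 0.0843).

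Ccne1, the cyclin E1 that drives Cdk2 at S phase entry, read 8.16, 8.31 and 8.29 untreated and 8.80, 8.47 and 8.64 with LPS in WT, with no overlap. It rose 1.30-fold (log2 difference 0.38, SE 0.12, adjusted p = 0.0413). KO values were 8.24, 8.20 and 8.21 untreated and 8.69, 8.27 and 8.32 with LPS (0.21, adjusted p = 0.289), where KO4 moved most. The WT call was lost without the untreated array of WT5, WT7 or WT13, the LPS array of WT5 or WT13, or both arrays of WT13 (adjusted p from 0.0748 to 0.14).

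The other 6 genes of the switch did not pass in either genotype, beside 22.8% of all genes past the test in WT and 14.7% in KO. Ccnd2 and Ccnd3, the other D cyclins, had LPS differences of -0.03 and 0.00 in WT and -0.37 (adjusted p = 0.109) and -0.05 in KO. Cdk2 and Cdk4 differed by 0.22 and 0.07 in WT and by 0.10 and 0.01 in KO. Other Cdk2 probes, each detected on 12 arrays, gave -0.04, -0.10 and -0.27 in WT and 0.23, -0.12 and -0.09 in KO. A second Cdk4 probe, also detected on 12 arrays, gave -0.42 in WT and -0.10 in KO. Ccne2 differed by 0.08 and 0.16, and the transcription factor gene E2f1 by 0.03 and 0.08. Among 27 other E2F, RB and CDK regulators, 3 rose and 5 fell in WT, where 10.5% of all genes were called higher and 12.3% lower. In KO 1 rose and 4 fell, beside 7.45% and 7.22% of all genes. Ccng2, a cyclin linked to growth arrest, rose by 0.95 in WT and 0.61 in KO, and Ccnh and E2f4 rose in WT by 0.56 and 0.59. Mnat1, the assembly factor of the CDK-activating kinase, fell by 0.50 and 0.58, and the repressor gene E2f6 fell by 0.37 and 0.35. In WT, E2f4 was lost without the untreated array of WT5 or WT7 or the LPS array of WT5 or WT13 (adjusted p from 0.0917 to 0.139), at 0.37 without the last, and Ccnh without the untreated array of WT7 or WT13 or the LPS array of WT13 (0.0586 to 0.068). In KO, Ccng2 was lost without any 1 array but the LPS array of KO4 (0.0559 to 0.113), and E2f6 without the LPS array of KO10 (0.0506).

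Of the S and G2 genes, only Ccna2 and Cdk1 could be measured. For LPS, 0 of 2 passed in either genotype, beside 22.8% of all genes in WT and 14.7% in KO. Ccna2, cyclin A2, read 5.53, 5.61 and 5.68 untreated and 5.21, 5.11 and 5.64 with LPS in WT (log2 difference -0.29, adjusted p = 0.292). In KO it read 5.96, 5.41 and 5.20 and then 5.91, 5.48 and 5.61 (0.14, adjusted p = 0.68). Cdk1, the mitotic kinase, read 10.40, 10.18 and 10.14 untreated and 10.31, 10.14 and 11.04 with LPS in WT. Its KO values were 10.38, 10.35 and 10.30 and then 10.77, 10.14 and 10.08. The highest value of each genotype after LPS came from 1 line, WT13 and KO4, and the other lines were lower than before.

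Mitosis genes had a median LPS change below 0 in 5 of the 6 lines, and 1 of 9 passed in WT and 0 of 9 in KO, beside 22.8% and 14.7% of all genes. Cdc20, the activator of the anaphase-promoting complex, read 10.92, 10.85 and 10.95 untreated and 10.26, 10.62 and 10.33 with LPS in WT5, WT7 and WT13. It fell 1.42-fold without overlap between conditions (log2 difference -0.50, SE 0.16, adjusted p = 0.0444). In KO4, KO10 and KO15 it read 11.07, 11.03 and 10.60 untreated and 10.94, 10.41 and 10.44 with LPS (-0.30, adjusted p = 0.251). All 4 Cdc20 probes were lower with LPS, by 0.50 to 0.69 in WT and by 0.29 to 0.40 in KO. The WT call was lost without the untreated array of WT5, WT7 or WT13, the LPS array of WT5 or WT13, or both arrays of WT13 (adjusted p from 0.0836 to 0.226).

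Plk1, a kinase that acts throughout mitosis, came next. It read 9.98, 10.03 and 10.00 untreated and 9.48, 9.78 and 9.42 with LPS in WT (log2 difference -0.44, SE 0.16, adjusted p = 0.0672), and passed with the cell line as a block (adjusted p = 0.0113). Its KO values were 10.03, 9.83 and 9.45 untreated and 9.87, 9.57 and 9.36 with LPS (-0.17, adjusted p = 0.543), and each KO line was lower after LPS. Birc5, the survivin subunit of the chromosomal passenger complex, differed by -0.28 in WT and -0.16 in KO, and its kinase partner Aurkb by 0.11 and 0.19. Bub1b differed by -0.23 and 0.07, Top2a, the topoisomerase that untangles chromosomes, by -0.11 and -0.17, and Ube2c by -0.21 and 0.05. The spindle genes Aurka and Tpx2 differed by -0.03 and 0.23 in WT and by -0.28 and 0.03 in KO.

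Line by line, the median change of the 9 mitosis members was -0.17 in WT5, -0.21 in WT7 and -0.22 in WT13. In the null lines it was 0.03 in KO4, -0.26 in KO10 and -0.15 in KO15. KO4 was the exception, with 3 of 9 members lower after LPS against 6 to 8 of 9 in the other lines. Over all genes the median was below 0 in every line, from -0.08 in WT13 to -0.03 in KO10, and 53.3% to 56.6% of genes were lower after LPS in a line. The median of the replication members was 0.16, 0.22 and 0.08 in WT5, WT7 and WT13, against 0.26, 0.15 and 0.07 for KO4, KO10 and KO15, above 0 in every line. Taken over group means, the median KO change was -0.02 for replication without the LPS array of KO4, and 0.02 for mitosis without the LPS array of KO15.

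**Figure D4:**
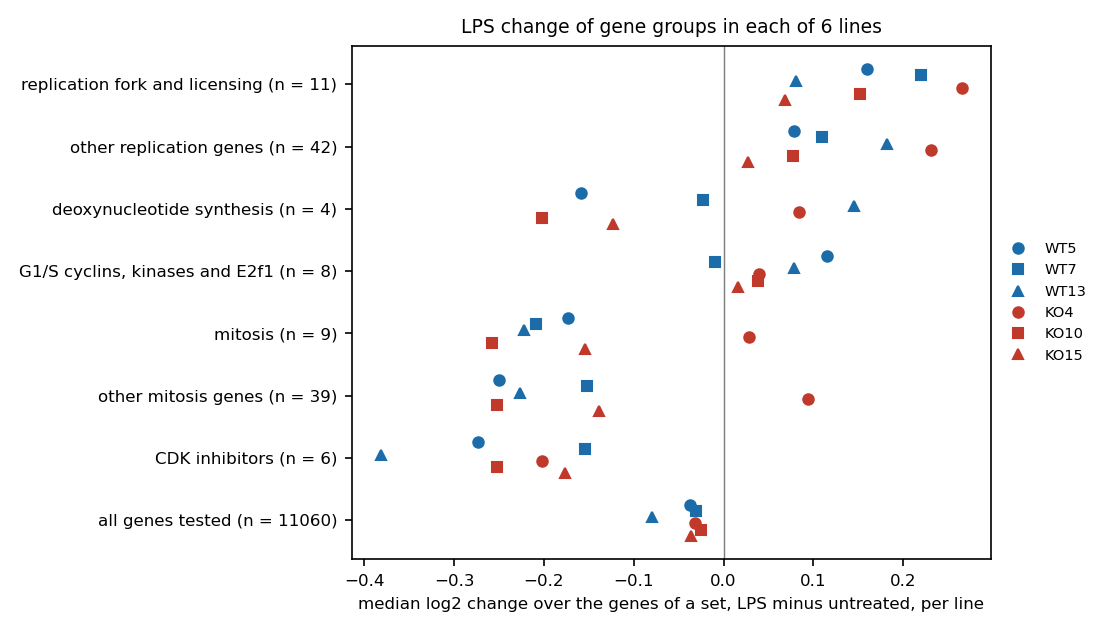
Median LPS change (x axis, log2 difference, LPS minus untreated) of gene groups (y axis), for each of the 6 cell lines. The groups are the role groups other than that of S and G2, the wider lists of replication and mitosis genes, and all genes tested. Replication medians lie above 0 in every line, the CDK inhibitor medians lie below 0 in every line, and the mitosis median lies below 0 in every line but KO4.

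In a second list of 39 mitosis genes, KO4 again stood apart from the other lines. Its median was -0.25, -0.15 and -0.23 in WT5, WT7 and WT13, 0.09 in KO4, and -0.25 and -0.14 in KO10 and KO15. Between 25 and 31 of the 39 were lower after LPS in each line but KO4, where 11 were, beside the 53.3% to 56.6% of all genes. In WT 3 of the 39 rose and 5 fell, where 10.5% and 12.3% of all genes did. Pttg1 (securin) rose by 0.66 and Cep55 by 0.54. Ttk, detected on 0 of 6 untreated arrays and 3 of 6 LPS arrays, was at least 1.21-fold higher, a call lost in 8 of 14 alternatives. Ttk entered the test through LPS alone, so its call among the 3 is not separate support. Among those lower, Kif23, a kinesin of the central spindle, fell by 0.89, Anln by 0.53 and Ckap2 by 0.48. In KO 0 rose and 1 fell, beside 7.45% and 7.22% of all genes: Cenpf, a kinetochore protein, fell by 0.37. That call was lost in 8 of 15 alternatives, among them each array left out but the LPS array of KO4 (adjusted p from 0.0511 to 0.12), and the difference was -0.11 without background correction. In WT, single arrays left out also ended the calls of Cep55 (untreated WT13 and LPS WT5, adjusted p = 0.079 and 0.0576), Ckap2 (untreated WT13, LPS WT5 and LPS WT13, 0.0501 to 0.0766) and Anln (untreated WT5 and WT7, LPS WT5 and WT13, 0.0548 to 0.0798), and Kif23 was at -0.59 without untreated WT13. With all kept probes of a gene averaged, Kif23 was at -0.22, Cep55 at 0.17 and Anln at -0.37, none called (adjusted p = 0.273, 0.346 and 0.0916). Without background correction the WT differences were 0.21 for Pttg1, 0.30 for Cep55 and 0.16 for Ttk, the last not called (adjusted p = 0.0564). The macrophage and leukocyte markers also set KO4 apart: the summed linear intensity of the 12 kept markers was 3159 untreated and 2460 with LPS in KO4. In the other KO lines it was 13503 and 6396 untreated and 8967 and 4410 with LPS, and in WT it ranged from 7395 to 10870 untreated and from 5153 to 7686 with LPS. The part of these cells in the mitosis values was not tested.

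The CDK inhibitors were lower after LPS more often than higher, with 5 of 6 below 0 in WT and 6 of 6 in KO, beside 57.3% and 55.3% of all genes. Their median change was -0.26 in WT and -0.14 in KO. Cdkn2b read 10.95, 10.85 and 10.68 untreated and 10.51, 10.62 and 10.50 with LPS in WT5, WT7 and WT13, without overlap (log2 difference -0.29, SE 0.11, adjusted p = 0.0794). In KO4, KO10 and KO15 it fell from 10.85, 10.88 and 11.12 to 10.50, 10.45 and 10.70, again without overlap. The KO drop was 1.32-fold (-0.40, SE 0.11, adjusted p = 0.0314). It did not hold without the untreated array of KO10 or KO15, the LPS array of KO4 or KO10, or both arrays of KO4 (adjusted p from 0.0589 to 0.122). With the cell line as a block, the WT drop passed too (adjusted p = 0.0472).

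Cdkn3 and Cdkn2c had larger differences with a wider spread. Cdkn3 read 9.61, 9.60 and 9.52 untreated and 9.02, 9.28 and 8.90 with LPS in WT, without overlap (log2 difference -0.51, SE 0.20, adjusted p = 0.0786). KO values were 9.84, 9.55 and 9.32 and then 9.56, 8.83 and 8.76, each line lower than before (-0.52, SE 0.20, adjusted p = 0.102). With the cell line as a block, Cdkn3 passed in both genotypes (adjusted p = 0.0112 in WT and 0.0141 in KO). Cdkn2c read 7.66, 7.81 and 7.82 untreated and 7.31, 7.52 and 6.82 with LPS in WT, where WT13 was lowest (-0.55, SE 0.19, adjusted p = 0.0531, and 0.0238 with the block). Its KO values of 7.77, 7.65 and 7.31 and then 7.72, 7.27 and 7.23 overlapped (-0.16, adjusted p = 0.612).

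The remaining 3 inhibitors did not pass in either genotype, beside 22.8% of all genes past the test in WT and 14.7% in KO. Cdkn1a read 12.98, 13.05 and 12.90 untreated and 12.89, 13.02 and 12.75 with LPS in WT (log2 difference -0.09, adjusted p = 0.504). In untreated KO it read 12.89 in KO4 and 12.98 in KO15, with KO10 slightly higher (mean 12.95 ± 0.06, SD, n = 3), and with LPS it read 12.95, 12.87 and 12.83 in KO4, KO10 and KO15. The KO difference was -0.07 (adjusted p = 0.677, limma). For Cdkn1b, whose values are given above, the WT conditions did not overlap (-0.24, adjusted p = 0.177) and the KO conditions did (-0.12, adjusted p = 0.582). Cdkn2a read 9.93, 9.83 and 9.88 untreated and 9.73, 9.86 and 10.18 with LPS in WT, and 9.67, 9.58 and 10.02 and then 9.51, 9.61 and 9.81 in KO. Its differences were 0.04 and -0.11, but the 2 other Cdkn2a probes gave -0.58 and -0.22 in WT and -0.58 and -0.24 in KO, and the sources used here do not say which transcript each probe reads.

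**Figure D5:**
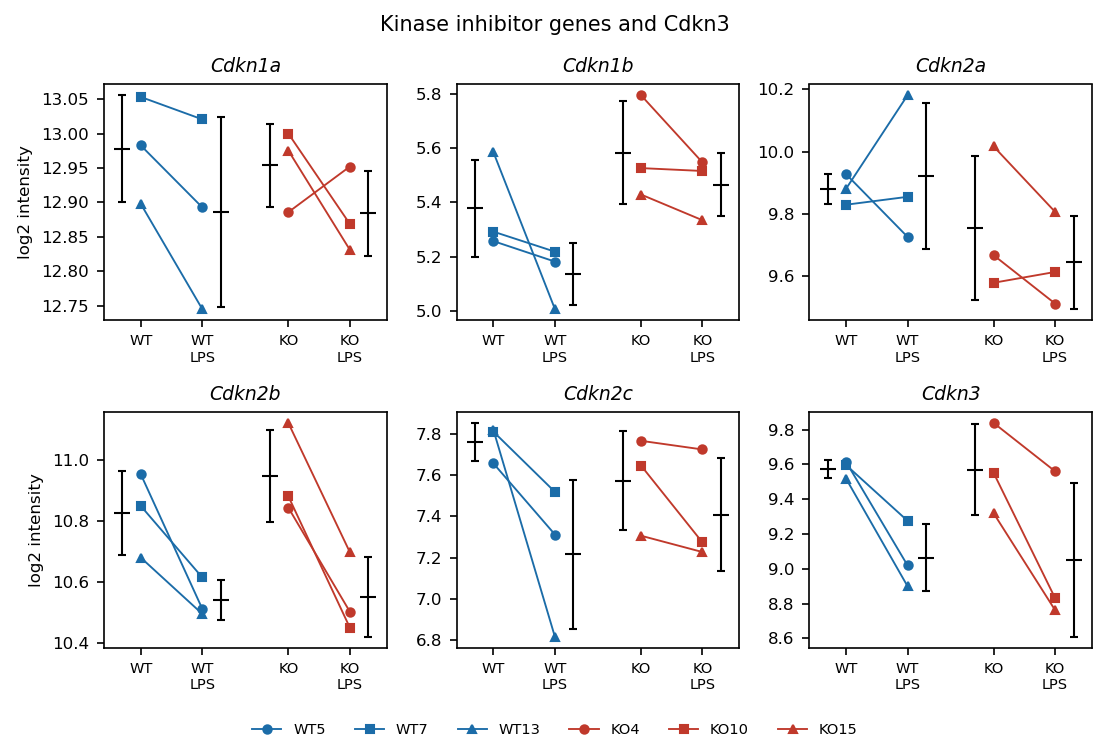
Level on each array (y axis, log2 intensity, a separate scale for each gene) of the 5 CDK inhibitor genes and the phosphatase gene Cdkn3, with a line joining the 2 arrays of each cell line. Black dashes and bars give the mean and SD of 3 lines. Cdkn1b, Cdkn2b, Cdkn2c and Cdkn3 drop in all 6 lines, while the Cdkn1a values of all groups lie between 12.75 and 13.05.

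Cdkn1c, the inhibitor that stood higher in the null lines, also gave the clearest response to LPS among CDK inhibitors. It read 11.98, 12.08 and 12.49 in untreated WT5, WT7 and WT13, against 13.16, 13.33 and 12.81 in untreated KO4, KO10 and KO15, with the LPS values given above. The fall was 2.13-fold in WT (log2 difference -1.09, SE 0.17, adjusted p = 0.00125) and 2.06-fold in KO (-1.05, SE 0.17, adjusted p = 0.00231), and the conditions did not overlap in either genotype. Among 21 p53 targets, 3 rose and 4 fell in WT, beside 10.5% and 12.3% of all genes, and 1 rose and 1 fell in KO, beside 7.45% and 7.22%. Plk2, a kinase gene that p53 induces, rose by 1.07 in WT and 1.23 in KO, and Gadd45a rose in WT by 0.47. Tigar, detected on 0 of 6 untreated arrays, was at least 1.28-fold higher with LPS in WT. It entered the test through LPS alone, so its call among the 3 is not separate support. Sesn1, a stress-response gene, fell by 0.85 and 0.59. The Gadd45a call was lost in WT without any 1 array but the LPS array of WT7 (adjusted p from 0.0557 to 0.16), and that of Sesn1 in KO without any 1 array but the untreated array of KO15 (0.0529 to 0.0903). Without background correction Tigar was at 0.20, and Gadd45a was at 0.74 with its kept probes averaged, both still called.

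Smooth muscle contractile markers moved with LPS too, with 8 of 12 lower in WT and 7 of 12 lower in KO, beside 12.3% and 7.22% of all genes. The marker medians were -0.47 and -0.60. Their summed linear intensity was 145157 to 156503 in untreated WT and 114334 to 129468 with LPS. In KO it was 142242 to 151186 untreated and 104027 to 120124 with LPS, so the conditions did not overlap in either genotype. Of 12 fibroblast markers, 1 was higher and 3 were lower in WT and 2 were lower in KO. Of all genes, 22.8% and 14.7% passed in either direction. The fibroblast markers had medians of -0.34 and -0.22. Their summed intensity was 48480 to 53605 untreated and 36642 to 44466 with LPS in WT, and 48389 to 53226 and then 45051 to 47646 in KO, also without overlap. The part of these shifts in the cell cycle values was not tested.

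The last comparison asked whether LPS acted differently on these genes in null lines. In the test of the difference between the 2 LPS changes, 0 of the 40 members passed and 0 had an unadjusted p under 0.05. Among all genes 0% passed, and 3.54% had an unadjusted p under 0.05. The members called in WT alone had differences between the changes (KO minus WT) of -0.45 for Mcm6, -0.11 for Mcm7, -0.17 for Ccne1 and 0.20 for Cdc20, each with an adjusted p of at least 0.949, and Cdkn2b, called in KO alone, had -0.11. So none of these calls was shown to belong to 1 genotype. The intervals of 37 members lay within 2-fold and those of 21 within 1.5-fold, with extremes of -1.22 for Mcm6 and 1.25 for Gins1. With the cell line as a block, which this within-line comparison allows, 0 members passed and 2 had an unadjusted p under 0.05, Ccna2 (0.43) and Bub1b (0.30), both with an adjusted p of 0.797, where 5.64% of all genes had such a p. The blocked intervals were narrower, 38 within 2-fold and 28 within 1.5-fold, with the same genes at the extremes, -1.08 and 1.21. The changes of the 3 lines in each genotype did not overlap for 2 members, against 12.3% of all genes: Mcm4 changed less in every KO line than in every WT line, and the change of Bub1b was more negative in every WT line than in any KO line.

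With the cell line as a block, which compares each line with itself, 11 members passed for LPS in WT and 6 in KO, beside 7 and 4 without it. All calls made without the block held with it. The additional ones, Plk1, Cdkn2b, Cdkn2c and Cdkn3 in WT and Cdkn3 and Tk1 in KO, were all lower with LPS. In the same fit 2992 of 11060 genes (27.1%) passed in WT and 1922 (17.4%) in KO, so the count rose for genes in general. The count of 7 in WT moved to 4 without the untreated array of WT5 or WT13 or the LPS array of WT13, to 4 without both arrays of WT13, and to 3 without the untreated array of WT7. The count of 4 in KO moved to 1 without the untreated array of KO10, and to 2 without the LPS array of KO10 or without both arrays of KO4.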

How the data were processed

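The authors deposited linear intensity values, the average bead signal of each probe before normalisation, per the file headers. The lowest signal on any array was 90.1, so no background had been subtracted. Beside each signal they deposited a detection p-value, per the file headers, which sets the probe against negative controls. Processed intensities were deposited in another table and are, from their values, linear, uncentred and quantile normalised (column medians 122.4 to 122.5, rank correlation 1 with the raw signals). The submitters' processing notes name BeadStudio without a version. All columns were used.

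Of 45281 probes, 34885 had 1 gene symbol in the platform annotation, 18 had several and 10378 had none, and of the 11060 symbols tested 11051 are in RefSeq's gene table for GRCm38.p6. The deposited signals were brought to log2 with neqc of limma 3.58.1 in R 4.3.3 (normexp from detection p, offset 16, quantile, log2). Probes with detection p under 0.05 on at least 3 of 12 arrays were kept, 1 per gene by highest mean. No probe's level was set against another's.

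One fit of 4 group means over 12 arrays (lmFit and eBayes, two-sided) gave 5 comparisons, and a fit of the 6 line means a further one; p-values were adjusted by Benjamini-Hochberg over all genes at 0.05. An exact permutation test of 3 against 3 cannot go below 0.1 and was not used. Fits were tested on simulated data. Same-line arrays are from the same cell line, and their deviations from group means correlated at 0.14 to 0.52, each line best with itself, so the fit with line as a block is given where it changes a call. Alternatives were the authors' values, no background correction, scaling to the 75th percentile, no detection filter, detection on all 12 arrays, averaged probes, only the arrays compared, line as a block, eBayes with trend and robust, and each array left out. Leaving out both arrays of WT13 or of KO4 was chosen after seeing the data.

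Members, lists and tests were chosen with earlier results of these data known. All members are accounted for, and values on every array are given for members past the threshold, for every CDK inhibitor and for the 2 of smallest p in a role group with no call; from each other list up to 3 called genes per comparison and direction are named, by smallest p. Values on every array of Bub1b, Gins1 and Plk1 were added after they were seen. The number of arrays limits the precision.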

Additional observations from a re-analysis of the deposited data

How the results depend on the processing

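For genotype, 0 members passed under all 17 alternatives without LPS, all 17 with LPS and all 13 over line means, and for the difference between LPS changes 0 passed under all 23. For LPS in WT, the count of 7 became 4 with no detection filter, 11 with line as a fixed replicate block and 4 without both arrays of WT13, and ranged from 3 to 9 when 1 array was left out. For LPS in KO, the count of 4 became 2 without both arrays of KO4 and ranged from 1 to 5 when 1 array was left out; with the replicate block it was 6. With line as a random replicate block, 0 members passed for genotype in either condition. No result changed direction in a called value. In WT, Pcna, Cdc6 and Ccnd1 passed under all 17 alternatives, while Mcm6 was lost in 9, Ccne1 in 8, Cdc20 in 7 and Mcm7 in 3. In KO, Cdkn2b was lost in 6, Ccnd1 in 5, Pcna in 2 and Cdc6 in 1. Fits with fewer arrays have less to estimate the spread from, but the cause of the losses, in these fits or in the others, was not tested.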
